A study of Mus musculus with 24 samples.

Results

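The retina of newborn mice (postnatal day 0, P0) was compared with that of mouse embryos at embryonic day 16 (E16). Each stage had 2 RNA-seq libraries, so the comparison used 4 of the 24 libraries of a series that covers 12 stages of the C57/Bl6N retina, with 2 libraries at each. The labels name no treatment and no altered gene at either stage. Total RNA came from retinas frozen at dissection, and strand-specific libraries were built from 1 µg of RNA by an mRNA protocol. The neighbouring stages E14 and P2 were used to place the step: they show whether a change at birth was part of a longer course or particular to a single stage. All 24 libraries also entered the fit, and so helped to set the spread behind each p-value. The labels do not say how many animals went into a library, whether the 2 libraries of a stage came from separate animals, or how many days lay between E16 and P0. The p-values below therefore measure the spread between libraries of the same stage, estimated over all 12 stages, and this spread may be technical.

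A retina of this age is still being built. Dividing progenitor cells produce ganglion cells, horizontal cells, cones and most amacrine cells before birth, while most rods, the bipolar cells and the Müller glia are produced around and after birth. Rods are the photoreceptors of dim light and cones those of bright light and colour; both depend on the transcription factors Otx2 and Crx, and the rod fate in addition on Nrl and Nr2e3. Hypoxia-inducible factors (HIFs) are transcription factors that are destroyed when oxygen is ample and persist when it is scarce, and their targets include the growth factor of vessels, Vegfa, and many enzymes of glycolysis.

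The 4 libraries were alike in depth, with totals of 32202777 and 32405347 estimated counts at E16 and 29627285 and 30221603 at P0. Levels are given as CPM, counts set to a common library total and scaled between libraries by the trimmed mean of M values (TMM), and the 2 values of a stage are always given in the order of replicate 1 and replicate 2. The median SD of the log2 level between the 2 libraries was 0.0906 at E16 and 0.114 at P0. Xist, which is transcribed from the inactive X of females, read 2017 and 2237 CPM at E16 and 1591 and 2455 at P0, and the Y-linked Ddx3y read 48.1, 48.6, 85.0 and 61.4, so that all 4 libraries held RNA from both sexes. Ribosomal RNA-like features took 1.16% and 1.35% of the counts at E16 and 0.247% and 0.137% at P0. The tissue label was checked on retinal markers, and the photoreceptor genes Crx and Rbp3 were present in all 4 libraries, with the values given below. Lens crystallins and other lens genes summed to 9.0 and 9.32 CPM at E16 and to 26.1 and 9.84 at P0.

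Between E16 and P0 the largest rises among genes of at least 20 CPM at their higher stage were those of photoreceptor genes, and the largest falls were those of 4 globins, Cntn2 and Gja1, followed by the ribosomal RNA-like Lars2 and Mir6236. Of the 21858 genes tested, 1038 were called higher at P0, which is 4.75%, and 662 were called lower, which is 3.03%. The counts of list members called from E16 to P0 are to be read beside these shares. A gene was called when its adjusted p was under 0.05 and its change at least 2-fold. Of the called genes, 366 were at least 4-fold higher and 191 at least 4-fold lower. All but 1 of those called higher and all but 1 of those called lower had 2 libraries of one stage above both of the other, which was also true of 60.8% of all genes tested. The median log2 change over all genes was 0.00. In 1303 of the called genes the mean level stayed under 20 CPM in both stages. Without E16 replicate 2 the number called higher was 622 and without P0 replicate 1 it was 682, and a test against a 2-fold change itself called 216 higher and 95 lower. Without globins and ribosomal RNA-like features the table gave 1036 higher and 649 lower. The step before it, from E14 to E16, had 1195 genes called higher (5.47%) and 364 lower (1.67%), and the step after it, from P0 to P2, had 661 higher (3.02%) and 210 lower (0.961%). Those neighbouring counts also moved with single libraries: 233 were lower at E16 without E14 replicate 2, and from P0 to P2 the count called higher was 422 without P0 replicate 2 and that called lower was 132 without P0 replicate 2, 107 without P2 replicate 1 and 133 without P2 replicate 2.

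**Figure D1:**
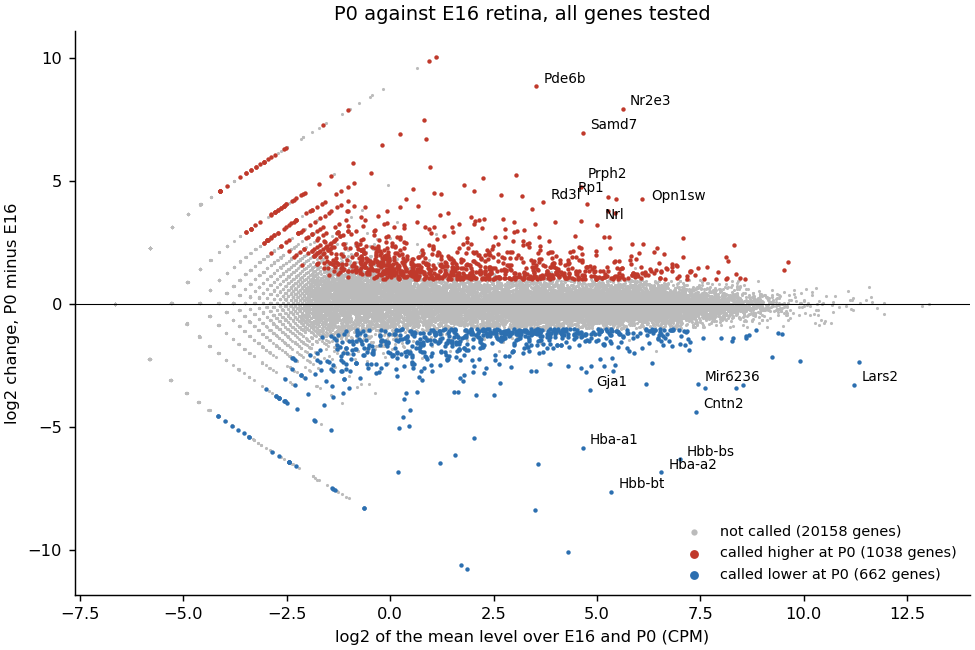
Log2 change from E16 to P0 (vertical axis) against the log2 of the mean level over both stages in CPM (horizontal axis), 1 point per gene tested. The 1038 genes called higher are red and the 662 called lower are blue; Pde6b, Nr2e3 and Samd7 stand highest among the labelled genes, and the 4 globins lowest.

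RNA of noncoding genes rose more often than it fell. Long intergenic noncoding RNAs had 99 members called higher and 24 lower among 1313 tested, and antisense RNAs 97 higher and 15 lower among 1136, against 694 higher and 567 lower among 16564 protein-coding genes. Of 21 mitochondrial transfer RNAs, 10 were called higher. The mitochondrial ribosomal RNA mt-Rnr2 read 339 and 394 CPM at E16 and 1079.7 and 1317 at P0, a log2 change of 1.71 (SE 0.161, adjusted p = 1.7e-06). Its partner mt-Rnr1, at 130.5 and 152 and then 117 and 138, overlapped between the stages, with a log2 change of -0.15 (SE 0.146, adjusted p = 0.507). All mitochondrial genes together took 3.06% and 3.53% of counts at E16 and 3.75% and 3.96% at P0.

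**Figure D2:**
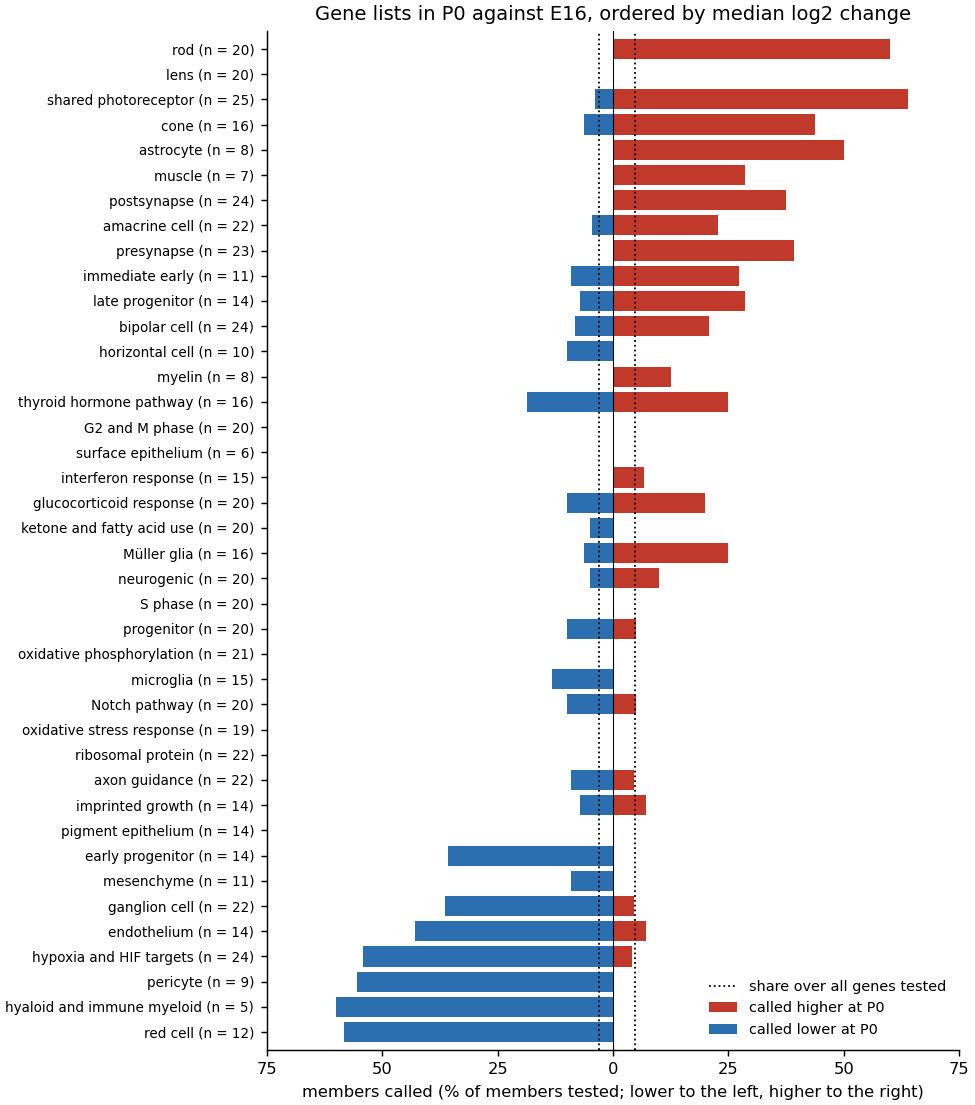
Share of the members of each gene list that were called higher (red, to the right) or lower (blue, to the left) at P0, in percent of the members tested, with the lists ordered by their median log2 change. Dotted lines mark the shares over all genes tested, 4.75% higher and 3.03% lower; the photoreceptor lists stand at the top with the lens list, which has no member called, and the red cell, myeloid, pericyte and hypoxia lists at the bottom.

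The photoreceptor genes are introduced with their promoters, because many of these promoters share letters that Crx and Otx2 are known to bind. The motif searched was TAATCC, read as GGATTA on the other strand, which overlaps no other motif searched here. RefSeq promoters of build GRCm38.p6 (250 bases before and 50 after each start site) were found for 28 of the 35 members of the rod, cone and shared photoreceptor lists that were called higher, and 12 of the 28 held the motif, which is 42.9%. Of 17 members with a promoter that were not called, 3 held it (17.6%), and of all 27025 genes with a promoter there, 2199 held it (8.14%). The match is a description of the letters and shows no binding. The 250 bases before the start site are shown for the regulator Crx itself, the shared gene Rbp3 and the rod genes Samd7, Sag and Cngb1, in the gene's own direction, with the motif in capitals:
Crx, chr7:15879956-15880205, minus strand: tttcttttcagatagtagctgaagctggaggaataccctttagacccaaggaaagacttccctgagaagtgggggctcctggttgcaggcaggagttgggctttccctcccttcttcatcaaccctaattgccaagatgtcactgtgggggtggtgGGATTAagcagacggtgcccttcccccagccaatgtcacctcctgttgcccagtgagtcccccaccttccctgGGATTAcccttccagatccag
Rbp3, chr14:33953753-33954002, plus strand: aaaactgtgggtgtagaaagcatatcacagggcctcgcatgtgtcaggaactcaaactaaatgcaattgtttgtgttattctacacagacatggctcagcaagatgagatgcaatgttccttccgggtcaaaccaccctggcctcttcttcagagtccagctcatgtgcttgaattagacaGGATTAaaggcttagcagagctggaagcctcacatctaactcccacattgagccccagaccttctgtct
Samd7, chr3:30746043-30746292, plus strand: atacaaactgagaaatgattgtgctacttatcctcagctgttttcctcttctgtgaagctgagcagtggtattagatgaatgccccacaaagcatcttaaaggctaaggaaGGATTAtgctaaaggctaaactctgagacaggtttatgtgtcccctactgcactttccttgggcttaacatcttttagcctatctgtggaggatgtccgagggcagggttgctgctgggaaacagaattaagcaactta
Sag, chr1:87803430-87803679, plus strand: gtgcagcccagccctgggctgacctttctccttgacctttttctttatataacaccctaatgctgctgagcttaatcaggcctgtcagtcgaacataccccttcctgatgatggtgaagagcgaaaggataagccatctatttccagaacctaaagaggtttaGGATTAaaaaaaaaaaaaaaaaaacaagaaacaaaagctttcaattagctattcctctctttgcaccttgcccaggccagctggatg
Cngb1, chr8:95306586-95306835, minus strand: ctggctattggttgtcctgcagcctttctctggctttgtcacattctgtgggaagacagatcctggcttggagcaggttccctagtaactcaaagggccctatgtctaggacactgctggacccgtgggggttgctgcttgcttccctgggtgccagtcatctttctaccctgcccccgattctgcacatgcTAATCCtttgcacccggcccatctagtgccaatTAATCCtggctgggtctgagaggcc
Crx and Cngb1 each held the motif 2 times in this stretch. Among these 5 genes a motif of Crx lay nearest to the start site, 21 bases before it, and that of Samd7 farthest, 139 bases before it. The promoters of Nrl, Nr2e3 and Pde6b, all strongly changed below, did not hold these letters in the same window.

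Most rod genes rose. Of the 20 rod genes tested, 12 were called higher at P0 and none lower, with a median log2 change of 3.48. Their sum went from 779.7 and 772 CPM to 1102 and 1158, and most of the sum is Gnb1, a G protein subunit that many neurons also make. The start was close to nothing: at E16 the median rod gene stood at 0.0908% of its level in the P28 retina and at P0 at 0.94%. In bulk RNA, more rods and more RNA in each rod cannot be told apart, and the same holds for every cell type below.

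Regulators of rods were among the genes called higher. Nrl, the leucine zipper factor that sets the rod fate (chr14:55518978-55524981 on GRCm38), read 4.27 and 4.36 CPM at E16 and 79.1 and 88.2 at P0, a 19.4-fold rise (log2 4.28, SE 0.132, adjusted p = 1.8e-11). Nr2e3, the nuclear receptor that silences cone genes in rods (chr9:59942771-59960659), read 0.421 and 0.371 CPM and then 101 and 95.3, a log2 change of 7.93 (SE 0.311, adjusted p = 6.2e-11). Samd7, a Polycomb-associated protein of photoreceptors (chr3:30746293-30767174), went from 0.541 and 0.247 CPM to 52.4 and 48.6, a log2 change of 6.98 (SE 0.304, adjusted p = 4.1e-10). In each of these genes both P0 libraries lay far above both E16 libraries, and the 2 libraries of P0 lay close together. Samd11, which is related to Samd7, stood at 14 and 16 CPM at E14, dipped to 6.44 and 5.97 at E16 and reached 86.4 and 75.5 at P0 (log2 3.70, SE 0.160).

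Genes of the rod light response were called higher too. Pde6b, the catalytic subunit of the rod phosphodiesterase (chr5:108388391-108432397), had 3 counts in all at E16 and 1464 at P0, a ratio of 506 with a 95% counting interval of 173 to 2458, and read 21.7 and 24.6 CPM at P0. Its inhibitory subunit Pde6g went from 1.68 and 1.02 CPM to 18.1 and 22.0 (log2 3.88, SE 0.206). Cngb1, part of the rod cation channel, went from 0.572 and 0.557 to 12.5 and 12.0, and the arrestin Sag from 5.66 and 4.73 to 72.0 and 71.7. Recoverin (Rcvrn), a calcium sensor, had 1 count at E16 and 148 at P0, a ratio of 154 with a counting interval of 27.1 to 6104. These genes were far from mature: Pde6b at P0 stood at 0.975% of its P28 level and Rcvrn at 0.356%, against 25.5% for Samd7, 19.7% for Nr2e3 and 6.19% for Nrl.

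The rod list was not moved as a whole. Gnat1, the rod transducin, read 1.71 and 2.32 CPM at E16 and 4.03 and 3.94 at P0, which did not reach a 2-fold change (log2 0.98, SE 0.331, adjusted p = 0.0426). It passed the limit narrowly with library size alone, with protein-coding genes alone and with summed transcript estimates, where its log2 changes were 1.04, 1.01 and 1.16. Gnb1, Esrrb, Reep6, Prom1, Susd3 and Slc24a1 were not called either, with log2 changes from -0.14 to 0.94. Reep6, a transport protein of rods, read 2.56 and 2.41 CPM at E16, 3.55 and 2.96 at P0 and 13.8 and 15.7 at P2.

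For 9 of the 20 rod genes the step into P0 was larger than the step out of it. This was tested by setting P0 against the mean of E16 and P2 on the log2 scale, a contrast in which 290 genes (1.33%) were called higher and 216 (0.988%) lower, with 123 higher without P0 replicate 1. It shares the E16 and P0 libraries with the main comparison, so its values stand beside the fold changes above and are no second line of evidence. The 9 rod genes called higher in it included Nr2e3, above the mean of its neighbours by 2.91 (adjusted p = 3.67e-07), and Nrl, above it by 1.53 (adjusted p = 2.75e-07). Cnga1, the other subunit of the rod channel, was not called in this contrast: it had 1 count at E16, 0.476 and 0.662 CPM at P0 and 23.4 and 27.3 at P2 (log2 -0.29, adjusted p = 0.942).

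**Figure D3:**
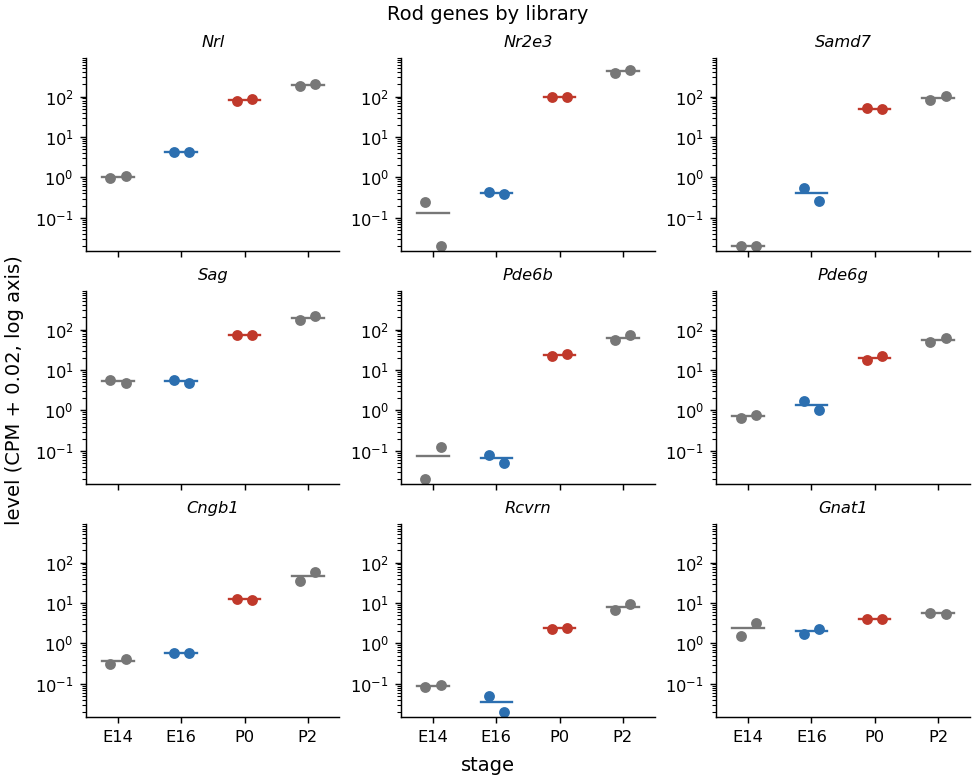
Level of 9 rod genes in each library at E14, E16 (blue), P0 (red) and P2, as CPM plus 0.02 on a log axis; points are libraries and lines the mean of the 2. Nrl, Nr2e3, Samd7, Sag, Pde6b, Pde6g, Cngb1 and Rcvrn rise steeply from E16 to P0, while Gnat1 stays within a few CPM.

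Genes shared by rods and cones rose as well, from higher starting levels. Of 25 tested, 16 were called higher and 1 lower, with a median log2 change of 1.5. Crx, the homeodomain factor of both cell types, went from 147 and 134 CPM to 358 and 334 (log2 1.3, SE 0.189, adjusted p = 0.000132). Otx2, which acts before it, went from 266 and 261 to 384 and 493, without overlap, but fell short of 2-fold (log2 0.73, SE 0.227, adjusted p = 0.0287). The disc rim proteins Prph2 and Rom1 went from 1.90 and 1.55 CPM to 45.0 and 49.0 and from 4.51 and 4.14 to 46.7 and 42.9, with log2 changes of 4.77 (SE 0.210) and 3.37 (SE 0.135). Rp1, a microtubule protein of the outer segment axoneme, went from 4.33 and 2.91 to 65.6 and 81.5 (log2 4.34, SE 0.277). Rbp3, the retinoid-binding protein of the space around photoreceptors, was the member with the highest CPM at P0, at 114 and 91.3 and then 546 and 528 CPM. Rd3l, a relative of the guanylate cyclase regulator Rd3, and Pitpnm3, a phosphatidylinositol transfer protein, belonged to no list and rose by log2 4.14 (SE 0.212) and 4.07 (SE 0.346).

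The member called lower was Isl2, a LIM-homeodomain factor also found in ganglion cells, at 12.9 and 11.8 CPM and then 6.44 and 4.35 (log2 -1.19, SE 0.252, adjusted p = 0.00281). That call was lost without P0 replicate 2. Prdm1, which holds back the bipolar fate in photoreceptor precursors, was not called, at 176 and 166 CPM and then 216 and 197 (log2 0.27, SE 0.169, adjusted p = 0.278).

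Cone genes divided. Of 16 tested, 7 were called higher and 1 lower, with a median log2 change of 1.06. Opn1sw, the short-wave cone opsin (chr6:29376671-29388468), rose from 7.64 and 5.57 CPM to 108 and 151 (log2 4.29, SE 0.214, adjusted p = 7.88e-10) and then stayed, at 123 and 134 at P2. The inhibitory subunit of the cone phosphodiesterase, Pde6h, went from 4.93 and 7.61 to 70.8 and 45.2 (log2 3.21, SE 0.278), and the cone arrestin Arr3 from 0.180 and 0.155 to 1.40 and 2.02 (log2 3.32, SE 0.421). Some genes already present at E16 were not called: the cone transducin Gnat2 read 27.8 and 24.5 and then 24.9 and 40.1, which overlap, and the channel subunit Cnga3 11.3 and 10.9 and then 12.9 and 19.3. For Opn1mw, the opsin of middle wavelengths, 0 counts were found at E16 and 1 at P0, too few to compare. Thrb, the thyroid hormone receptor that directs middle-wave opsin, fell from 133 and 155 CPM to 40.5 and 70.1 (log2 -1.38, SE 0.221, adjusted p = 0.000309), and its partner Rxrg did not pass the test, at 23.7 and 23.8 and then 18.0 and 22.0.

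Targets of the hypoxia-inducible factors fell into P0, and most of those that fell were higher again at P2. Of 24 tested, 13 were called lower at P0 and 1 higher, with a median log2 change of -1.04. The summed level of the list was 3742 and 3321 CPM at E14, 3829 and 3906 at E16, 2107 and 2315 at P0, and 4352 and 4076 at P2. In the contrast of P0 with the mean of E16 and P2, 12 members were called lower, against 0.988% of all genes tested, and from P0 to P2 9 members were called higher and none lower. Leaving out any one of the 4 libraries left 11 to 13 members called lower from E16 to P0, and a test against a 2-fold change itself left 3.

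The deepest drop was that of the lactate exporter. Slc16a3, which carries lactate out of the cell (chr11:120948480-120960868), read 74.5 and 59.9 CPM at E14, 59.0 and 63.1 at E16, 7.94 and 13.4 at P0 and 63.6 and 49.0 at P2. That was a 5.73-fold fall into P0 (log2 -2.52, SE 0.298, adjusted p = 1.85e-05), and the level at P0 lay 2.46 log2 units below the mean of its neighbours (adjusted p = 4.44e-05). Pfkfb3, which makes the allosteric activator of glycolysis, went from 64.4 and 75.7 to 19.9 and 22.0 and back to 50.6 and 36.9 (log2 into P0 -1.74, SE 0.174). Hk2, the hexokinase that starts glycolysis, went from 52.2 and 54.6 to 15.4 and 19.3 and then to 29.5 and 23.6 (log2 -1.62, SE 0.265), a return that stayed below the E16 level.

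Abundant glycolytic enzymes took part. Ldha, lactate dehydrogenase A, read 1003 and 982 CPM at E16, 391.7 and 459 at P0 and 968 and 993 at P2 (log2 into P0 -1.22, SE 0.179). Pgk1, phosphoglycerate kinase, read 589 and 576, then 213 and 267, then 547 and 497. Aldoa, an aldolase, read 391 and 355, then 141 and 144, then 564 and 513. In all 3 enzymes both P0 libraries lay below every E16 and P2 library. The share of all genes tested with this order was not counted. Pdk1, the kinase that holds pyruvate back from mitochondria, went from 156 and 158 CPM to 53.5 and 57.2 and on to 164 and 115. Pfkl, the liver-type phosphofructokinase, and Ak4, a mitochondrial adenylate kinase, are glycolytic or energy enzymes outside the list. They were named as 2 of the 6 lowest genes at P0 against the mean of E16 and P2, so their dip was set by that choice. Pfkl read 205 and 181, then 66.4 and 59.8, then 208 and 203. Ak4 read 40.1 and 52.5, then 5.78 and 7.94, then 19.5 and 11.8, a return that stayed below the E16 level.

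Members outside glycolysis fell too. Bnip3, which marks mitochondria for removal, went from 106 and 125 CPM to 34.1 and 43.8 and then to 86.5 and 77.6. P4ha1, a collagen hydroxylase, Egln3, an oxygen-sensing hydroxylase, Ddit4, a brake on mTOR, and Ankrd37 were also called lower, Ankrd37 not without E16 replicate 1 or without P0 replicate 1. Vegfa, the growth factor that draws vessels into the retina (chr17:46016993-46032377 on GRCm38), read 163 and 129 CPM at E16, 59.0 and 81.8 at P0 and 167 and 153 at P2. Its fall lay close to the 2-fold limit (log2 -1.05, SE 0.165, adjusted p = 0.000255) and was not called without E16 replicate 1, where it was -0.87, nor without P0 replicate 1, where it was -0.84. Slc2a1, the glucose transporter, was lower by less than 2-fold, at 441 and 517 and then 293 and 307 (log2 -0.68, adjusted p = 0.00194).

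Not every target moved. Kdm3a, a histone demethylase, read 162 and 219.7 CPM and then 177 and 231, and Car9, a carbonic anhydrase that is a classic hypoxia marker, stood near 1.5 CPM at both stages (1.53 and 1.24, then 1.62 and 1.45). Pfkfb4, P4ha2, Mxi1 and Adm were not called, with log2 changes from -0.38 to 0.25. Ndrg1, a stress-response gene, was the member called higher, from 191 and 175 to 392.2 and 348, and this call was lost without E16 replicate 1, without E16 replicate 2 and without P0 replicate 1. No member of 21 oxidative phosphorylation genes was called by edgeR or by DESeq2, although 2 were higher and 3 lower at an unadjusted p under 0.05, and the median log2 change was -0.08. Of 19 oxidative stress genes none was called by either tool, with 3 higher and 7 lower at an unadjusted p under 0.05.

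**Figure D4:**
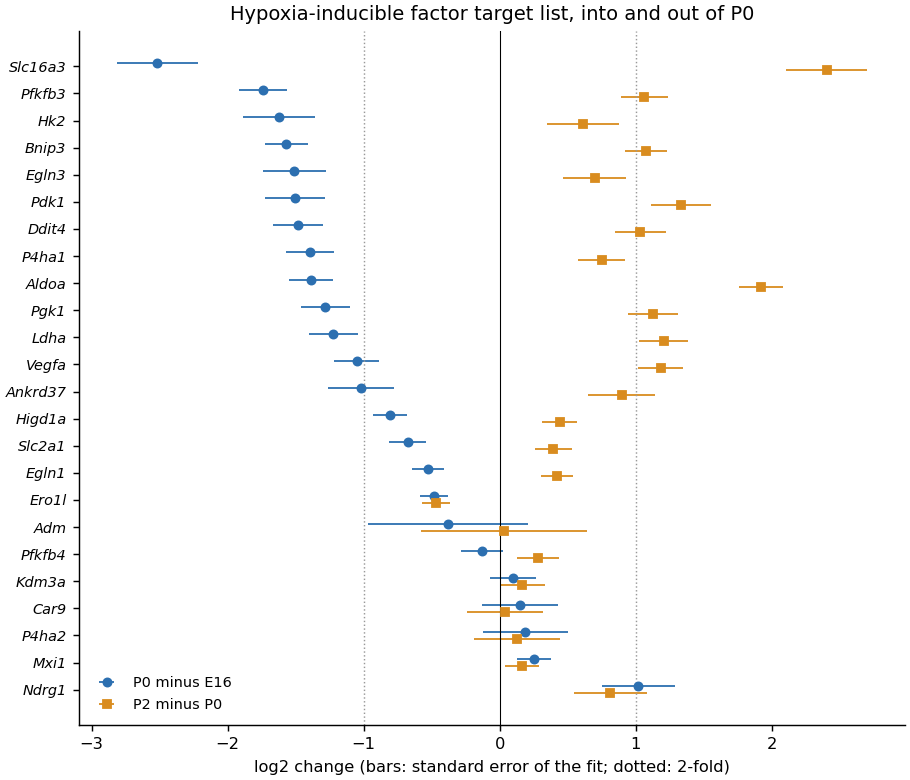
Log2 change of the 24 members of the HIF target list from E16 to P0 (blue circles) and from P0 to P2 (orange squares), with the standard error of the fit as bars and 2-fold changes dotted. Slc16a3 falls by 2.52 and rises again by 2.40, every other member called lower at P0 has a negative first and a positive second change, and Ndrg1 lies above 0 in both.

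Promoters of these genes are shown because HIFs are known to bind a short core, read here as ACGTG or GCGTG on either strand. The letters CACGTG, which other factors also bind, contain this core. All 13 members called lower had a RefSeq promoter and held the core in at least one, as did all 9 members with a promoter that were not called lower, so the letters did not separate the groups. Of all 27025 genes with a promoter, 46.7% held it. The 250 bases before the start site of 4 members, one of several annotated starts for Ldha, are given with the core in capitals:
Slc16a3, chr11:120948817-120949066, plus strand: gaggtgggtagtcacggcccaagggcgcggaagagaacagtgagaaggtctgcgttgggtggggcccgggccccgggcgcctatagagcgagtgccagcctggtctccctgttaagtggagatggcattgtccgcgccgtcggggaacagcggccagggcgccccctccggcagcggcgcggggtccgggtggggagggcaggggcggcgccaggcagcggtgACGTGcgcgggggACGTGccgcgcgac
Bnip3, chr7:138909507-138909756, minus strand: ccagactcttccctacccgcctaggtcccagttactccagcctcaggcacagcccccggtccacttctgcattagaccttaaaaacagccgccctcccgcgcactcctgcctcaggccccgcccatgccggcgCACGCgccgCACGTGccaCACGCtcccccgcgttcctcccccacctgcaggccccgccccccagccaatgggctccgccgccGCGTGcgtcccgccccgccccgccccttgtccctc
Ldha, chr7:46845554-46845803, plus strand: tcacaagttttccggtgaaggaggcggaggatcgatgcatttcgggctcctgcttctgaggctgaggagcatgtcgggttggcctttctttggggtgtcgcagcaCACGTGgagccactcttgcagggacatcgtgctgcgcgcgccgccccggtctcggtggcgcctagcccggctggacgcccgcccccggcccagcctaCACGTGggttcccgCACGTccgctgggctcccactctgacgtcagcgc
Pgk1, chrX:106186850-106187099, plus strand: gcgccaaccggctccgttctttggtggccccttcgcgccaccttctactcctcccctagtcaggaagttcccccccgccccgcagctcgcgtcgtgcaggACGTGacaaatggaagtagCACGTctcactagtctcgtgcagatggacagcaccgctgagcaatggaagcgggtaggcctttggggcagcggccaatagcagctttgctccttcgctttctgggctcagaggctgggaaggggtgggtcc
In these stretches Slc16a3 and Pgk1 held 2 separate copies each, Ldha 3 and Bnip3 4, counting cores that touch as one.

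RNA of red blood cells nearly vanished. Of 12 red cell genes tested, 7 were called lower and none higher, with a median log2 change of -3.67, and their sum went from 453 and 710.2 CPM at E16 to 7.63 and 8.48 at P0. The adult beta globin Hbb-bs read 196 and 311 CPM and then 3.05 and 3.28, an 80.1-fold fall (log2 -6.32, SE 0.488, adjusted p = 1.68e-07). The alpha globin Hba-a2 read 145 and 226 and then 1.33 and 1.86 (log2 -6.86, SE 0.505). Alas2, the first enzyme of heme synthesis in red cells, fell from 4.99 and 9.0 to 1.49 and 0.567. The embryonic globin Hbb-y had 49 counts at E16 and none at P0, so it was at least 15.8-fold lower, taking 3 counts over both P0 libraries as the limit. Its call was lost without E16 replicate 2 and with either P0 library left out. Hba-a1 and Hba-a2, and likewise Hbb-bs and Hbb-bt, are near-identical copies, and the split of reads within each pair is uncertain. At P2 the sum was 13.3 and 7.0 CPM, so the low level lasted, and at E14 it was 192 and 383.

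Cells of the vessel wall and of the embryonic eye's own vessels showed lower RNA at P0 as well. Of 9 pericyte genes 5 were called lower, and their sum went from 104 and 113 CPM to 43.8 and 42.5. The largest share of that sum is Notch3, a receptor of mural cells that is also made by progenitors, at 55.6 and 53.3 and then 22.5 and 18.7. Rgs5, a pericyte marker, rose from 0.383 and 2.80 CPM at E14 to 21.3 and 32.1 at E16 and fell to 7.43 and 9.46 at P0 (log2 -1.66, SE 0.346, adjusted p = 0.00251). The channel subunits of pericytes, Kcnj8 and Abcc9, went from 0.842 and 0.804 to 0 and 0.126 and from 4.6 and 6.52 to 1.27 and 1.32. Lyve1, F13a1 and Pf4, markers of the macrophages on embryonic vessels, were 3 of 5 tested myeloid genes and all 3 were called lower, Lyve1 from 1.80 and 2.91 to 0.127 and 0.189 (log2 -3.86, SE 0.569). Mrc1, a scavenger receptor of such macrophages, read 2.44 and 3.62 and then 0.254 and 0.441 (log2 -3.11, SE 0.572).

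Endothelial genes were less uniform. Of 14 tested, 6 were called lower and 1 higher, and the count called lower was 1 to 4 when any one library was left out, with 1 each without E16 replicate 2 and without P0 replicate 1. The member called higher, Slco1a4, was not called without E16 replicate 1 or without P0 replicate 2. Cdh5, the cadherin of endothelial junctions, read 6.47 and 10.5 CPM and then 1.52 and 1.29 (log2 -2.59, SE 0.641, adjusted p = 0.0081), a call that was lost without E16 replicate 2 and with either P0 library left out. Esm1, a marker of endothelial tip cells, had 148 counts at E16 and 1 at P0, a ratio of 143 with a counting interval of 25.2 to 5673. Flt1, a receptor for Vegfa, went from 8.45 and 11.0 to 3.68 and 3.97, and its call was lost without E16 replicate 2 and with either P0 library left out. Cldn5, the tight junction protein of these cells, was not called, at 5.20 and 5.41 and then 6.92 and 6.78 (log2 0.37, SE 0.412, adjusted p = 0.575). The sum of the list went up, from 338 and 325 to 522 and 487, and most of it is Kdr, the main Vegfa receptor, which retinal progenitors and neurons also express, at 289 and 263 and then 492 and 457, without a call. Microglial genes had 2 of 15 called lower by edgeR and by DESeq2, Mrc1 above and P2ry12, the second not without E16 replicate 2. None was called higher by either tool. At an unadjusted p under 0.05, 5 were lower and none higher.

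The falls in red cell, pericyte and myeloid RNA moved together with the fall of the HIF targets, although the sums of those lists were also low at P2. Whether the amount of blood and vessel tissue in the libraries had a part in any of these results was not tested.

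**Figure D5:**
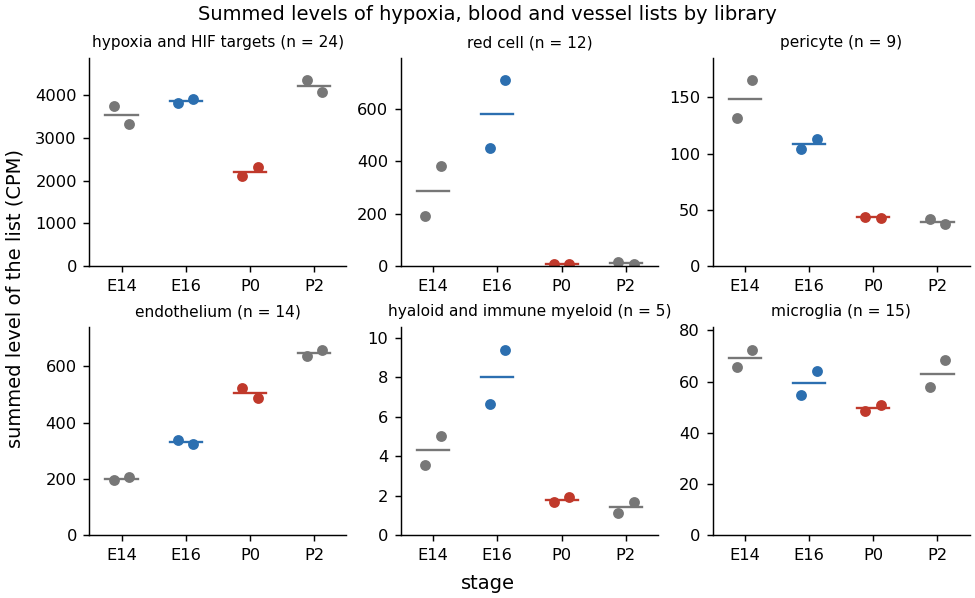
Summed CPM of 6 gene lists in each library at E14, E16 (blue), P0 (red) and P2, with lines at the mean of 2 libraries and axes from 0. The HIF targets are low at P0 and high again at P2, the red cell, pericyte and myeloid sums are low at both P0 and P2, and the endothelial sum, mostly Kdr, rises throughout.

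Ganglion cell genes fell. Of 22 tested, 8 were called lower and 1 higher, with a median log2 change of -0.88, and 7 or 8 were called lower with any library left out, but 1 when tested against a 2-fold change itself. Gap43, a protein of growing axons, went from 438 and 473 CPM to 154 and 167 (log2 -1.51, SE 0.164, adjusted p = 8.92e-06). Nefm, a neurofilament, went from 239 and 213 to 82.2 and 72.2, Sncg, gamma synuclein, from 213 and 215 to 77.3 and 83.5, and Elavl4, an RNA-binding protein of new neurons, from 196 and 227 to 56.0 and 78.0. None of these overlapped between the stages, which was also true of 60.8% of all genes tested. Thy1, a surface protein of ganglion cells, was the member called higher, from 11.19 and 8.44 to 41.5 and 39.3 (log2 2.04, SE 0.132, adjusted p = 4.32e-08).

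Of 3 factors of the ganglion cell fate, 1 was called lower. Atoh7, the proneural factor that progenitors need to make ganglion cells, read 28.9 and 34.5 CPM at E14, 9.23 and 11.8 at E16 and 0.794 and 0.788 at P0 (log2 -3.73, SE 0.830, adjusted p = 0.00405). Pou4f2, its downstream target, read 80.6 in both E16 libraries and 28.6 and 29.4 at P0, but with a wide SE across the series it did not pass the test (log2 -1.47, SE 0.558, adjusted p = 0.0696), and it did pass when the 2 stages alone were fitted. Isl1 read 146 and 147 and then 77.4 and 81.9 (log2 -0.88, adjusted p = 0.183).

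Cntn2 stood apart. This axonal adhesion protein (chr1:132509427-132543256) read 331 and 341 CPM at E14, 356 and 284 at E16, 16 and 14.3 at P0 and 10.6 and 10.8 at P2, a 21.14-fold fall (log2 -4.40, SE 0.253, adjusted p = 4.3e-09). Most axon guidance genes were not called: of 22 tested, 2 were called lower, Cntn2 and the ligand Ntn1, and 1 higher, the receptor Robo3, with a median log2 change of -0.24. Over all genes tested, 3.03% were called lower and 4.75% higher, so the share called higher lay near that of all genes. Ntn1 went from 4.33 and 4.2 to 0.889 and 0.851, and Robo3 from 10.4 and 7.42 to 39.1 and 27.5 and on to 130.4 and 184 at P2.

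Genes of the cell cycle gave no calls, and a few genes of progenitors did. Of 20 S phase genes and 20 genes of G2 and M phase, none was called by edgeR or by DESeq2, and the medians were -0.07 and 0.03. At an unadjusted p under 0.05, 1 S phase gene was higher and 4 lower, and 3 genes of G2 and M phase were higher and 2 lower. Mki67, present in all cycling cells, read 941 and 1129 CPM and then 1263 and 1402 (log2 0.36, SE 0.177, adjusted p = 0.159), and Ccnd1, the cyclin of retinal progenitors, 2696 and 2760.4 and then 3217 and 2916 (log2 0.17, SE 0.204, adjusted p = 0.608). Of 20 progenitor genes 1 was called higher and 2 lower, against 4.75% and 3.03% of all genes tested. The 2 were Sfrp2, a Wnt modulator, from 131 and 142 to 28.4 and 22.5 (log2 -2.42, SE 0.150), and the growth factor Fgf15, from 964 and 1008 to 180.0 and 256 (log2 -2.18, SE 0.241). Fabp7, a fatty acid-binding protein, rose from 52.2 and 57.0 to 123 and 179. Fgf3, a ligand of the same family as Fgf15, fell from 48.6 and 50.2 to 9.01 and 8.13 (log2 -2.53, SE 0.224).

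Part of the genes of early progenitors fell, and some genes of late progenitors rose. Of 14 genes of early progenitors 5 were called lower and none higher, with a median of -0.81; at an unadjusted p under 0.05 10 were lower and none higher, and DESeq2 also called 5 lower. Igf2bp1, an RNA-binding protein, went from 141 and 136 CPM to 51.1 and 46.6 (log2 -1.5, SE 0.220), Hmga2, a chromatin protein, from 35.1 and 39.6 to 16.16 and 16 (log2 -1.22, SE 0.160), and Sox11 from 616 and 630.5 to 292 and 298. Of 14 genes of late progenitors 4 were called higher and 1 lower. Nfix, a nuclear factor I gene that late progenitors use to leave the cycle, went from 3.49 and 2.23 to 31.3 and 26.6 (log2 3.34, SE 0.534, adjusted p = 0.000308), and its relative Nfib from 47.0 and 42.1 to 117 and 109.6 (log2 1.35, SE 0.198). Nfia, at 22.5 and 26.1 and then 48.3 and 39.0, stayed under 2-fold (log2 0.85, adjusted p = 0.0437). Car2, carbonic anhydrase 2, went from 39.6 and 37.6 to 154 and 165. Sox9, a factor of progenitors and Müller glia, was the member called lower, from 65.5 and 59.1 to 30.5 and 25.7 (log2 -1.15, SE 0.215).

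Of the neurogenic factors, Atoh7 was the only member called lower. Of 20 tested, 2 were called higher, Neurod2 (0.331 and 0.309 CPM, then 2.13 and 1.92) and Gadd45g (1.62 and 1.98, then 9.27 and 7.35). Over all genes tested, 4.75% were called higher and 3.03% lower. Olig2 read 24.8 and 21.5 and then 26.1 and 19.6, Neurod1 225 and 226 and then 291 and 323, and Neurod4 199 and 229 and then 384 and 429, none of them called. In the Notch pathway, which holds progenitors back from differentiation, 1 of 20 genes was called higher, the effector Hey2 from 5.90 and 4.39 to 17.7 and 16.6 (log2 1.73, SE 0.161), and 2 lower, Notch3 and the ligand Jag1. The share called higher lay near that of all genes tested.

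Amacrine genes mostly lay higher at P0, but few were called. Log2 changes were above 0 in 16 and below in 6, and at an unadjusted p under 0.05 14 were higher and 1 lower. Of 22 tested, 5 were called higher and 1 lower, with a median of 0.62. Gad1, which makes the inhibitory transmitter GABA, went from 10.5 and 8.32 CPM to 65.9 and 60.3 (log2 2.74, SE 0.115, adjusted p = 1.02e-10). Npy, a neuropeptide, went from 0.722 and 0.495 to 7.43 and 6.84, and Chat, which makes acetylcholine, from 0.331 and 0.0309 to 2.60 and 3.34. Slc18a3, the vesicular acetylcholine transporter, rose from 0.391 and 0.340 to 2.57 and 1.73, while Slc5a7, the choline transporter, fell from 6.05 and 4.88 to 1.71 and 1.77 (log2 -1.65, SE 0.247, adjusted p = 0.000173). The other GABA enzyme, Gad2, already stood at 86.9 and 72.0 and reached 139 and 96.7 without a call (log2 0.57, adjusted p = 0.0765).

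A minority of synaptic genes were called higher, and none was called lower by edgeR. Most lay higher at P0 at any fold: log2 changes were above 0 in 15 presynaptic genes and below in 8. Among postsynaptic genes 19 were above 0 and 5 below. Of 23 presynaptic genes 9 were called higher, with a median of 0.51, and DESeq2 called 8 higher and none lower; 2 were lower at an unadjusted p under 0.05. Slc17a7, the glutamate transporter of photoreceptor and bipolar vesicles, went from 1.59 and 1.36 CPM to 11.0 and 13.3 (log2 3.04, SE 0.172), and Cacna1f, the calcium channel of ribbon synapses, from 1.71 and 1.11 to 16.3 and 12.5 (log2 3.34, SE 0.416). The active zone protein Rims1 went from 28.4 and 21.9 to 79.7 and 93.2. Of 24 postsynaptic genes 9 were called higher, 5 without E16 replicate 2 and 6 without P0 replicate 1, with a median of 0.74; 1 was lower at an unadjusted p under 0.05 and none by DESeq2. Gria2, an AMPA receptor subunit, went from 57.6 and 54.3 to 159.7 and 182 (log2 1.61, SE 0.192), and the GABA receptor subunit Gabra2 from 15.5 and 9.68 to 45.7 and 54.8 (log2 2.0, SE 0.230).

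The bipolar list was mixed, with 5 of 24 genes called higher and 2 lower; without E16 replicate 1, or without E16 replicate 2, 3 were called higher. Cabp5, a calcium-binding protein, rose from 1.56 and 1.17 CPM to 4.6 and 6.97. Trpm1, the channel of ON bipolar cells that pigment cells also make, fell from 21.4 and 15.6 to 2.76 and 2.84 (log2 -2.72, SE 0.463, adjusted p = 0.000517). In the pigment epithelium list none of 14 members was called by edgeR, and 1 was called lower by DESeq2. At an unadjusted p under 0.05, 1 member was higher and 3 lower. The median log2 change was -0.43, with 9 members below 0 and 5 above, while the sum went from 72.0 and 89.0 CPM to 85.8 and 95.6. Whether pigment cells had a part in the fall of Trpm1 was not tested. Bhlhe23, a transcription factor of rod bipolar cells, had 46 counts at E16 and 1 at P0.

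Glial lists were mixed. Of 16 Müller genes 4 were called higher and 1 lower, with a median log2 change of -0.01, and 2 were called higher without E16 replicate 2 or without P0 replicate 1. Among them was Rlbp1, the retinaldehyde-binding protein, from 8.48 and 8.41 CPM to 36.6 and 44.4 (log2 2.26, SE 0.218, adjusted p = 2.26e-06). Glul, glutamine synthetase, was not called, at 486 and 523 and then 529 and 539. Of 8 astrocyte genes 4 were called higher: Gfap, the glial filament, from 1.62 and 0.309 to 7.27 and 9.33 (log2 3.09, SE 0.512), S100b from 0.301 and 0.247 to 1.62 and 1.54, Pdgfra, the receptor that marks astrocytes entering the retina, from 6.74 and 6.12 to 21.4 and 25.6, and Aldoc, an aldolase, whose call was lost without E16 replicate 2. Gja1, the gap junction protein connexin 43 of glia, progenitors and vessels, went the other way, from 42.5 and 61.2 to 5.02 and 4.22 (log2 -3.49, SE 0.261, adjusted p = 1.33e-07).

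Genes of hormone signals changed without a common direction. In the thyroid hormone pathway 4 of 16 genes were called higher and 3 lower, with a median of 0.05, and 2 were called higher without E16 replicate 1 or with either P0 library left out. Dio3, which destroys the hormone, fell from 20 and 22.8 CPM to 6.95 and 5.36 (log2 -1.80, SE 0.371, adjusted p = 0.00235), and Dio2, which activates it, rose from 0.150 and 0.340 to 0.857 and 1.20, a call lost without E16 replicate 1 and without P0 replicate 2. Klf9, a target of both thyroid hormone and glucocorticoids, read 1.95 and 1.85 at E14, 7.40 and 8.10 at E16, 28.8 and 24.5 at P0 and 14.6 and 14.8 at P2. It was called higher at P0 than at E16 (log2 1.78, SE 0.114, adjusted p = 1.72e-08) and than the mean of E16 and P2 (log2 1.32, adjusted p = 3.67e-07). In the glucocorticoid list 4 of 20 genes were called higher, among them the clock gene Per1 (18.6 and 16.5, then 48.4 and 40.3, then 22.7 and 29.5 at P2) and Klf15, and 2 lower; without P0 replicate 1, 2 were called higher and Klf15 was not. The classic targets Fkbp5 and Tsc22d3 were not called and lay lower at P0, at 62.4 and 70.4 and then 45.0 and 51.5, and at 53.4 and 61.6 and then 34.8 and 38.6.

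In 185 of the genes called higher at P0 than the mean of E16 and P2, both P0 libraries lay above all 4 libraries of these neighbours, and in 182 of those called lower both lay below. This is a high or low against the neighbours only, since later stages can lie further out: Klf9 averaged 26.7 CPM at P0 and 129 at P28. Moxd1, a monooxygenase-like protein, read 6.02 and 5.38 CPM at E16, 35.5 and 41.1 at P0 and 17.5 and 19.6 at P2, which lay 1.90 log2 units above the mean of its neighbours (adjusted p = 3.88e-08). Utp14b read 55.7 and 58.0, then 235 and 193, then 150.3 and 147, and Amy1, an amylase, 10.8 and 8.10, then 31.7 and 39.1, then 22.9 and 27.4. The feature listed as PISD read 84.6 and 92.2, then 215 and 221, then 80.2 and 50.5, and its rise from E16 was not called with either E16 library left out. Erbb4, a neuregulin receptor, stood above its neighbours by a log2 difference of 1.39 in the gene table, but by 0.30 when transcript estimates were summed. Igfbpl1, a binding protein of growth factors, was lower at P0 than at both neighbours, at 75.9 and 69.1, then 11.8 and 10.3, then 17.8 and 15.8.

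E16 was set against its neighbours in the same way. In the contrast of E16 with the mean of E14 and P0, 400 genes (1.83%) were called higher and 128 (0.586%) lower, with 248 higher and 83 lower without E16 replicate 1 and 65 lower without E16 replicate 2. A gene can be called here that changed on 1 side only, as Cntn2 did; both E16 libraries lay above all 4 neighbouring libraries in 266 of the genes called higher and below them in 96 of those called lower. Among these genes, at 20 CPM or more, the largest of those higher were Hbb-bt, Hbb-bs, Hba-a2, Lars2, Mir6236 and Rgs5. Lars2, which encodes a mitochondrial tRNA synthetase and was grouped here with the ribosomal RNA-like features, read 563 and 433 CPM at E14, 4079.9 and 4556 at E16, 541 and 345 at P0 and 211 and 167 at P2, and Mir6236 read 44.8 and 37.3, then 296 and 334, then 45.0 and 20. The 18S ribosomal repeat Rn18s-rs5 took the same course, from 1050.3 and 630.1 to 3882 and 4725 and back to 1050.4 and 613. Genes with a dip at E16 included Txnip, a thioredoxin-binding brake on glucose uptake, at 74.5 and 112, then 34.5 and 38.2, then 234 and 239, and Crabp1, a retinoic acid-binding protein, at 209.6 and 197, then 26.3 and 27.0, then 45.3 and 46.9.

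Housekeeping genes gave no calls, and imprinted growth genes gave 1 each way, against 4.75% of all genes tested called higher and 3.03% lower. No ribosomal protein gene of 22 was called by either tool (1 higher and 6 lower at an unadjusted p under 0.05, median -0.18). Of 14 imprinted genes, the cell cycle inhibitor Cdkn1c was called lower, from 55.2 and 54.7 CPM to 17.8 and 17.0, and the long noncoding RNA Meg3 higher, from 498 and 315 to 1107 and 1010.3. None of the 20 lens genes was called by edgeR, with none at an unadjusted p under 0.05, while DESeq2 called 3 higher. The lens sums come with the wide spread of these genes over the series, in which 1 E14 library reached 3264 CPM.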

How the data were processed

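Estimated counts per gene, as deposited by the authors for all 24 libraries, were the starting values; the submitters' processing notes name kallisto 0.42.4, edgeR 3.13.9 and build GRCm38.p5 without their roles. The labels do not state how transcripts were brought together into genes. Counts were rounded to whole numbers and genes kept by edgeR's filterByExpr at a minimum count of 10 by stage, which left 21858 of 45594. edgeR 4.0.16 (R 4.3.3, limma 3.58.1) fitted its quasi-likelihood model with TMM factors and 1 term per stage to all 24 libraries, which left 12 residual degrees of freedom. A gene was called at a Benjamini-Hochberg adjusted p under 0.05 over all genes tested and at least a 2-fold change, and the SE of a log2 change came from its F statistic. Percentages of P28 compare mean CPM. The fit was tested on simulated data.

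Intervals of count ratios are exact 95% intervals and cover counting error only. The members of the 40 lists, and the lists themselves, were chosen with earlier results of these data known. Of 647 listed entries, 634 were tested. The naming rule took the 14 largest rises and falls among called genes of at least 20 CPM with libraries that did not overlap, the 3 largest called members of each list, the 6 largest genes each way in each contrast of a stage with its neighbours, and a set of marker genes. Some of these are not printed. Pfkl and Ak4 came in by the naming rule, while other list members and genes of known roles were picked for the text after their values were seen. Near-identical copies such as globin pairs share reads, so their split is uncertain. Alternatives covered DESeq2 1.42.0, other scaling factors, filters and fold thresholds, a replicate block, the compared stages alone, summed transcript estimates and leaving out each library. Protein-coding genes alone and a table without globins and ribosomal RNA-like features were added after seeing the data. The authors' normalized values and their comparisons with E11 were not used here.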

Additional observations from a re-analysis of the deposited data

How the results depend on the processing

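With 2 libraries a stage, the spread between libraries limits what can be called. The filter asked for a count of about 10 in at least 2 libraries, at any stage of the series. Genes with few counts at E16 and P0, such as Opn1mw and Cnga1, could therefore be tested because other stages held more. The counts called changed most with the fold threshold. With the adjusted p alone, 2333 genes were higher and 2432 lower from E16 to P0, which made 49.0% of the called genes higher against 61.1%, and the neighbouring comparisons gave 1117 and 1296 for P0 against the mean of E16 and P2, 1224 and 621 for E16 against the mean of E14 and P0, 2132 and 1561 from E14 to E16, and 2302 and 1510 from P0 to P2. Tested against a 2-fold change, the same comparisons gave 216 and 95, 17 and 25, 55 and 9, 465 and 72, and 90 and 11. From E16 to P0 that test left 4 of the 7 cone genes, 2 of the 9 postsynaptic and 1 of the 5 bipolar genes called higher, and 1 of the 6 endothelial genes and none of the 5 early progenitor and 5 pericyte genes called lower. Without a filter on low counts, 394 genes were lower at P0 than the mean of its neighbours, 247 lower at E16 than the mean of its neighbours, and 547 lower at E16 than at E14.

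Leaving out 1 library gave 622 to 955 genes higher and 449 to 625 lower at P0 than at E16, and 123 to 243 higher and 147 to 188 lower at P0 than the mean of E16 and P2. It gave 248 to 379 higher and 65 to 136 lower at E16 than the mean of E14 and P0, 947 to 1077 higher and 233 to 394 lower from E14 to E16, and 422 to 630 higher and 107 to 153 lower from P0 to P2. The library left alone is then assumed to vary like the other stages. From E16 to P0, DESeq2 called 949 higher and 638 lower, with 2119 adjusted p-values not given. Library size alone gave 1144 and 587, and summed transcript estimates 1145 and 721.

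The replicate numbers were not taken to pair the samples: deviations of same-numbered E16 and P0 libraries correlated at 0.199 over 11006 genes, and over 66 pairs of stages at -0.258 to 0.359. With the replicate number as a block, 1022 genes were higher and 668 lower. Of the single-gene log2 changes under these alternatives, 3119 kept their direction and call, 155 lost the call, 76 of these when tested against a 2-fold change, 16 gained it, and none reversed with a call.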

Other observations

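Lists of immediate early, muscle and interferon genes had calls that rested on single libraries. Of 11 immediate early genes 3 were called higher and 1 lower, and with 1 library left out 0 to 2 were higher and none lower. Of 7 muscle genes 2 were called higher, Acta1 and Myh3, and 0 to 2 with 1 library left out, and of 15 interferon genes 1 was called higher, Isg15, and none with any 1 of the 4 libraries left out. One of 8 myelin genes, Cnp, which oligodendrocytes and other cells make, was called higher, from 22.7 and 16.7 CPM to 55.2 and 57.5 (log2 1.52). No surface epithelium gene of 6 was called by edgeR or by DESeq2, nor was any at an unadjusted p under 0.05. One of 11 mesenchyme genes was called lower, Col1a2, though not without E16 replicate 1 or without P0 replicate 2, and their sum went from 13.9 and 12.4 CPM to 7.22 and 8.54.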
